A study of Mus musculus with 4 samples.

Results

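The 47 genes described here encode the machinery of the G2 and M phases of the cell cycle: the cyclin B-CDK1 switch and its phosphatases, the mitotic kinases, the spindle checkpoint, the anaphase and ubiquitin machinery, centromere and kinetochore proteins, spindle motors, cytokinesis proteins, proteins of mitotic chromosome structure and the transcription factor Foxm1. They were chosen by name and by known function, with earlier results of these data known. They were measured with 66 of the 39429 probes of an Agilent 1-colour mouse array, and 46 of them were among the 15961 genes tested. The exception was Cenpf.

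The cells were B cells purified from the spleens of male mice and activated in culture for 3 days with anti-IgM (10 µg/mL) and anti-CD40 (10 µg/mL), which stand in for antigen and for help from T cells. All 4 cultures received both agents, so no resting B cells were among the samples. The comparison was of Ackr4ko mice, which lack the atypical chemokine receptor Ackr4, with WT mice (C57BL/6). There were 2 arrays per genotype in 2 experiments with their own donors. In experiment 1 the Ackr4ko donor was 73 days old and the WT donor 77 days, and in experiment 2 they were 71 and 74 days old. The labels do not give the strain background of the Ackr4ko mice or the design of the allele.

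Cell division in a proliferating B cell is driven in waves of transcription. Late in S phase and in G2, genes for cyclin B, CDK1, mitotic kinases and spindle proteins are switched on together, largely through the MuvB complex with B-Myb and FOXM1, which reach promoters through a short element called the CHR (cell cycle genes homology region), and through NF-Y, which binds CCAAT boxes. The same genes are repressed in resting cells by the DREAM complex through the same element, and after anaphase the anaphase-promoting complex (APC/C) marks many of their products for destruction. Activated splenic B cells divide repeatedly in culture, so these transcripts mark the cells that are preparing for or passing through mitosis.

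The promoters of 40 of the 47 genes were found in a RefSeq promoter table (GRCm38.p6; 250 bases before to 50 after each start), as 43 promoters of 300 bases. They are shown because promoter sequence was not used to choose the genes. Each stretch below runs 5′ to 3′ on the gene's own strand from 90 bases before to 30 after the start; capitals mark TTTGAA (the CHR), its second form TTTAAA, and CCAAT (the NF-Y box), read on either strand, so that a box on the other strand appears as ATTGG or TTCAAA.
Cdk1 (chr10:69352883-69353002, minus strand): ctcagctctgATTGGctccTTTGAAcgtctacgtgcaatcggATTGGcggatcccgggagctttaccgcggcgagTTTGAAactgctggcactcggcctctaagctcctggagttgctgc
Ccnb2 (chr9:70421525-70421644, minus strand): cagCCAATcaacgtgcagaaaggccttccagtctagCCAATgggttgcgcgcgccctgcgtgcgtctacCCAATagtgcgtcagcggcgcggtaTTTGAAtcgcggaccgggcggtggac
Cdc20 (chr4:118437314-118437433, minus strand): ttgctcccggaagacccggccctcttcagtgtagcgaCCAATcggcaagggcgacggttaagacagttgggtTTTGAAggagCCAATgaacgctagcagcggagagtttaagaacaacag
Ttk (chr9:83834599-83834718, plus strand): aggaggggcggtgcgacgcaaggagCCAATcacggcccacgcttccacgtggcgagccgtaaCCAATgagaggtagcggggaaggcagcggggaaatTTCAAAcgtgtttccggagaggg
Hmmr (chr11:40733408-40733527, minus strand): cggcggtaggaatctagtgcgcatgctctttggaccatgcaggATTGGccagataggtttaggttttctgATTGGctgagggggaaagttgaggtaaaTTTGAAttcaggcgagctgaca
Cenpa (chr5:30666796-30666915, plus strand): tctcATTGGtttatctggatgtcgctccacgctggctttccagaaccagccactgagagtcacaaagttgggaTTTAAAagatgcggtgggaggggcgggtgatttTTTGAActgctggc
Ccnb1 (chr13:100786457-100786576, minus strand): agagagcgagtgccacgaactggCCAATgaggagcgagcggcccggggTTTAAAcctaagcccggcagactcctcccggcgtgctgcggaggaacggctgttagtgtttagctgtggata

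In these stretches Cdk1 holds 2 TTTGAA and 2 CCAAT boxes, Ccnb2 holds 1 TTTGAA behind a row of 3 CCAAT boxes, and Cdc20, Ttk and Hmmr each hold 1 TTTGAA and 2 CCAAT boxes. Ccnb1 has the second form, TTTAAA, and no TTTGAA in its 300 bases. Over the whole 300 bases, TTTGAA stood in the promoters of 29 of the 40 genes (72.5%), against 20.2% of the 27025 genes in the table. It began and ended between 60 bases before and 30 after the start in 22 of 40 (55.0%), against 5.36% of all genes. CCAAT stood in 29 of 40 (72.5%) against 41.1%, at least 2 CCAAT boxes in 19 of 40 (47.5%) against 13.3%, and both motifs in the same promoter in 25 of 40 (62.5%) against 7.97%. TTTAAA stood in 9 of 40 (22.5%) against 14.9%. A match is a stretch of letters and not a measured binding site.

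The sites also lay closer to the start than in promoters at large. The 42 TTTGAA sites had a median first base 16 bases before the start (position -16.0), against -124.0 over the 6737 sites in all promoters. The 69 CCAAT sites had a median of -71.0, against -92.0 over 17707 sites. Positions are relative to the start in the promoter table, which equalled the RefSeq gene start for 20 of the 43 promoters. Bub3, Ect2 and Prc1 have 2 overlapping promoters each, so their sites were counted in both. Among other cell cycle genes, TTTGAA stood in 56.9% of the promoters of 51 further G2 and M genes, in those of 3 of 10 G1 and S cyclins and E2F genes and 3 of 15 APC/C genes, in 12.5% of 32 DNA replication and S phase genes and in 9.52% of 21 cell cycle inhibitors and p53 targets. CCAAT stood in 66.7% of the further G2 and M genes, in 6 of 10 and 6 of 15 of the cyclin and APC/C genes, and in 62.5% and 76.2% of the replication genes and the inhibitors.

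**Figure D1:**
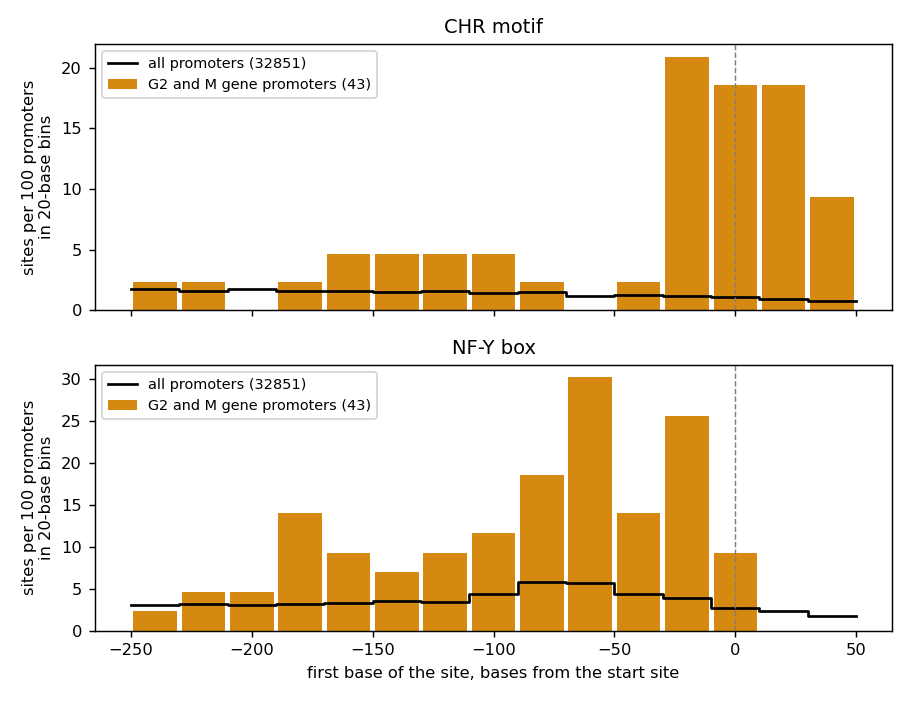
Sites per 100 promoters in bins of 20 bases, by the first base of the site relative to the start of transcription (0, dashed), for TTTGAA (CHR, top) and CCAAT (NF-Y box, bottom). Bars are the 43 promoters of the G2 and M phase genes and the line is all 32851 promoters in the table; TTTGAA sites of the G2 and M phase genes gather from 30 bases before to 29 after the start, with 18.6 to 20.9 sites per 100 promoters in each bin there.

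Signal is given below as log2 of the processed signal minus the array's 75th percentile, so that a value of 0 is as bright as the 75th percentile of that array and a step of 1 is a doubling. A probe's level depends on its sequence as well as on the transcript, so differences between arrays are compared across genes and levels are not. Directions carry the labels of the scanner files. The authors' value table of the same arrays holds the genotypes the other way round: over 16207 probes, each of its 4 columns correlated at 0.999 to 1 with its experiment's scanner array of the opposite genotype, against 0.9786 to 0.9858 for the array of its own label. Ackr4 itself settles nothing, since neither of its probes rose well above background on any array (0 of 4). Every direction below would turn round if the value table's labels were right, and the text therefore speaks of arrays labelled Ackr4ko and arrays labelled WT.

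The arrays had a 75th percentile of 740 to 1277 signal units, and 42.2% to 54.9% of probes were well above background. The array labelled WT of experiment 2 stood apart, with 6.24% of spots called outliers against 1.79% to 2.12% on the others, and a highest background of 292 signal units against 61 to 76. The 4 arrays shared 1 slide and 1 scan session. All 8 B cell markers were tested, and their summed signal was 342 to 368 times the 75th percentile on the arrays labelled Ackr4ko and 426 to 453 times on those labelled WT. With 2 arrays a group, an exact permutation test of 1 gene cannot go below 0.333 (two-sided), so the tests below come from limma over all 15961 genes. Without a block on the experiment, their p-values measure the spread between these arrays.

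Across the 46 tested G2 and M phase genes, the arrays labelled Ackr4ko read higher than those labelled WT by a median of 0.45 on the log2 scale, with single genes between -0.25 (Ccnb1) and 0.95 (Tpx2). The difference was above 0 in both experiments for 39 of 46, against 33.0% of all tested genes, and below 0 in both for 1 of 46 (Ccnb1), against 20.9%. No gene of the group passed the test: 0 of 46 had an adjusted p under 0.05 (limma, Benjamini-Hochberg over all tested genes), where 2 of 15961 genes did (0.0125%). At an unadjusted p under 0.05 there were 2 of the 46 (Ttk and Tpx2), among 732 genes in all, and the adjusted p of the 46 ran from 0.97 to 1. A fit that blocks on the experiment called 532 genes (3.33%) and again 0 of the 46. In that fit 5 of the 46 had an unadjusted p under 0.05, a share similar to that of all tested genes (1694 of 15961). The lowest adjusted p of the 46 was 0.131 (Tpx2), followed by 0.156 (Ttk), 0.23 (Hmmr), 0.287 (Bub1) and 0.299 (Anln). The standard error in that fit was 0.35 for each of the 46, so these p-values follow the size of the difference and not a gene's own spread. The differences were smaller than 2-fold in the mean for all 46 (0 reached it), and without the block their standard error had a median of 0.38.

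All tested genes were shifted to a lesser extent. Their median was 0.08, made up of -0.04 in experiment 1 and 0.23 in experiment 2, while the median over the 46 genes was 0.45 in experiment 1 and 0.49 in experiment 2. Relative to those medians they stood 0.49 above all genes in experiment 1 and 0.26 above in experiment 2. They lay above the median of all genes in both experiments for 38 of 46, against 28.5% of all tested genes. By mean difference, 35 of the 46 were in the upper 25% of all tested genes and 12 in the upper 10%. Quantile normalization left a median of 0.46 in experiment 1 and 0.23 in experiment 2, with 34 of 46 above 0 in both. In bulk RNA, more cells in G2 and M and more of these transcripts per such cell cannot be told apart.

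**Figure D2:**
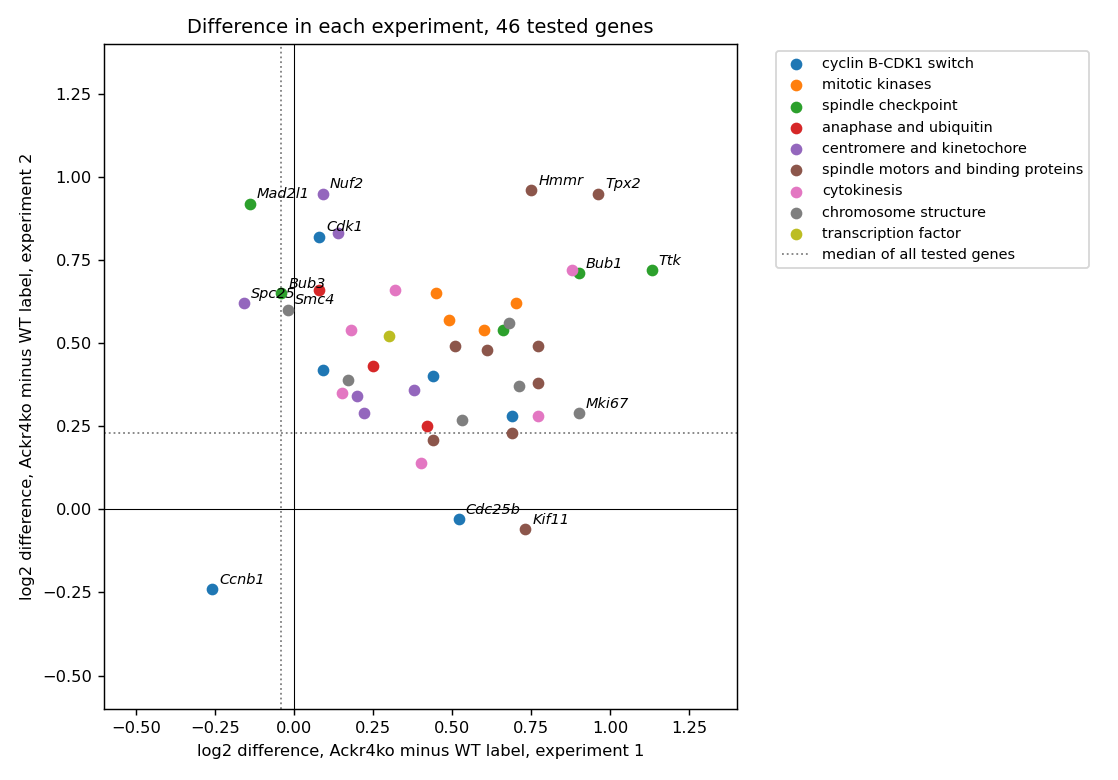
Log2 difference between the arrays labelled Ackr4ko and labelled WT in experiment 1 (horizontal) and experiment 2 (vertical) for the 46 tested G2 and M phase genes, coloured by role, with 1 array per label in each experiment; dotted lines mark the medians of all tested genes (-0.04 and 0.23). Of the 46 points, 39 lie at the upper right, Ccnb1 alone lies in the lower left, and the other 6 have opposite signs.

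The median depended on single arrays. Since 1 experiment has 1 array per label, leaving out an array also unbalances the experiments, and the experiments differed for these genes. From experiment 1 to experiment 2 the 46 genes read higher by a median of 0.58 on the arrays labelled Ackr4ko (42 of 46 genes) and of 0.63 on those labelled WT (45 of 46 genes), where all tested genes moved by 0.13 and -0.08. As medians, the step between experiments was thus larger than the difference between labels, which was not tested. Without the array labelled Ackr4ko of experiment 2 the median difference was 0.12, and without the array labelled WT of experiment 1 it was 0.17. Without the array labelled WT of experiment 2, the one that stood apart, it was 0.73, and without the array labelled Ackr4ko of experiment 1 it was 0.75. Experiment 1, which does not hold the array that stood apart, had 41 of 46 genes above 0, against 44.6% of all tested genes; experiment 2 had 43 of 46, against 67.5%.

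The order of the arrays was much alike across the group. The mean profile of the 46 genes, each centred on its own mean, was -0.08 and 0.54 under the Ackr4ko label in experiments 1 and 2, and -0.52 and 0.06 under the WT label. The highest value lay on the array labelled Ackr4ko of experiment 2 for 41 of 46 genes, and the lowest on the array labelled WT of experiment 1 for 41 of 46. The exceptions were Ccnb1, Cdc25b, Bub3, Mad2l1, Spc25, Kif11, Kif23, Smc4 and Mki67. The values of the 2 labels did not overlap, with Ackr4ko higher, for 16 of 46 genes, against 19.0% of all tested genes, and did not overlap with WT higher for 0 of 46, against 10.0%.

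**Figure D3:**
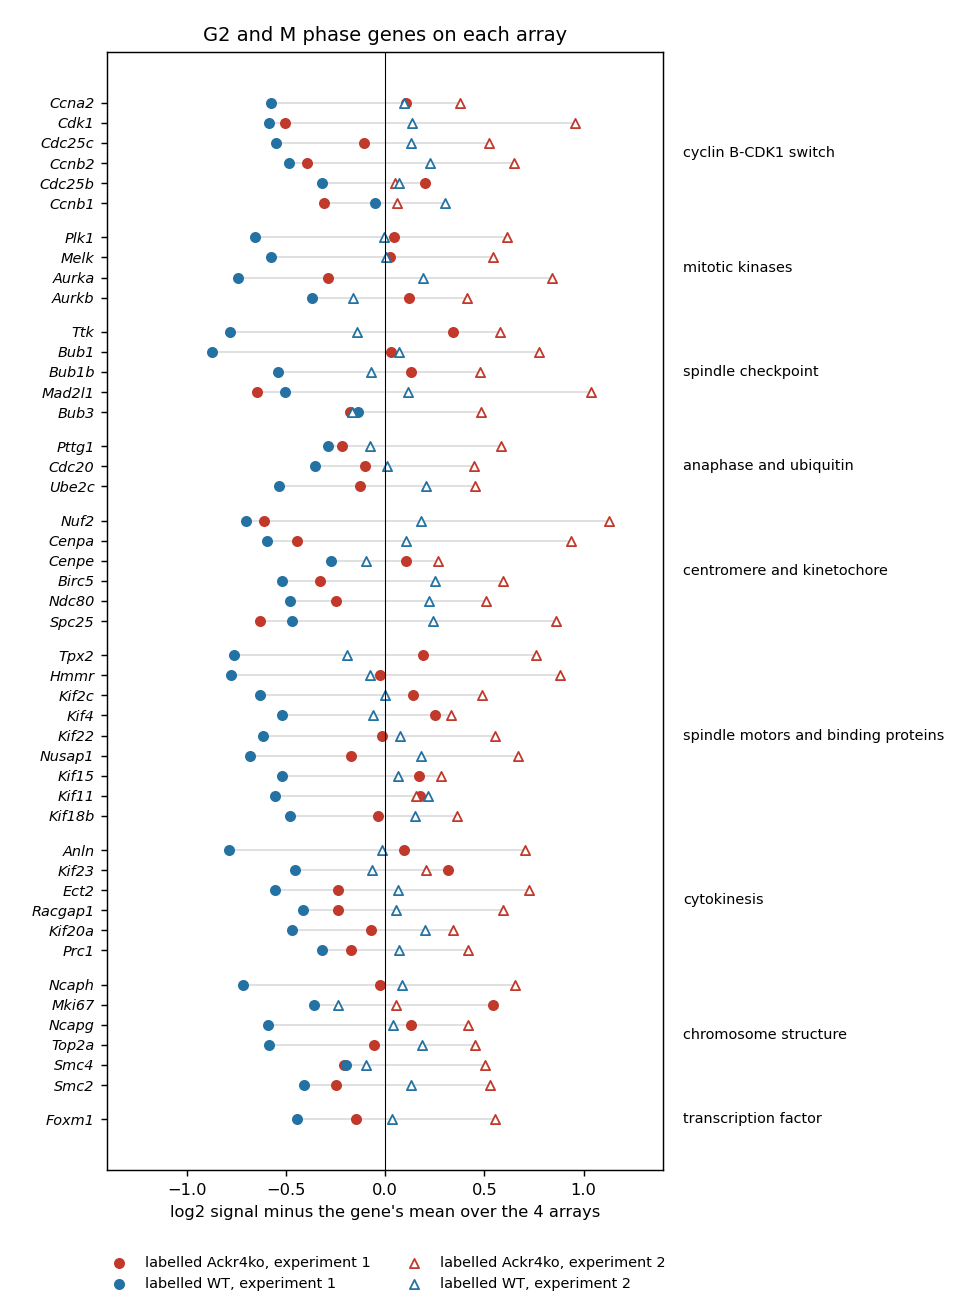
Log2 signal of the 46 tested genes on each of the 4 arrays, minus the gene's mean over the 4 arrays (horizontal), ordered by role and then by mean difference; red is labelled Ackr4ko, blue is labelled WT, filled circles are experiment 1 and open triangles experiment 2. The open red triangle is rightmost for 41 of 46 genes and the filled blue circle leftmost for 41 of 46.

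The cyclin B-CDK1 switch starts mitosis. Its 6 genes had a median difference of 0.34, and 4 of 6 were above 0 in both experiments. Ccna2 (cyclin A2, which acts in S phase and G2) read 2.82 and 3.09 under the Ackr4ko label in experiments 1 and 2, and 2.14 and 2.81 under the WT label. Its mean difference was 0.48 ± 0.36 (SE, n = 2 arrays per label; 1.4-fold), and its labels did not overlap, though by little, since 2.82 and 2.81 nearly touch. Cdk1, the kinase that cyclins A and B activate, read 0.81 and 2.27 under the Ackr4ko label and 0.73 and 1.45 under the WT label, a difference of 0.45 ± 0.51. Its labels overlapped, and nearly all of the difference came from experiment 2 (0.82, against 0.08 in experiment 1). Ccnb2 (cyclin B2) had 0.25 ± 0.44, and Cdc25c, a phosphatase that removes the inhibitory phosphates from CDK1, had 0.42 ± 0.39, both above 0 in both experiments.

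Ccnb1 (cyclin B1), the partner of CDK1 at mitotic entry, was the only one of the 46 below 0 in both experiments. It read 1.74 and 2.11 under the Ackr4ko label and 2.00 and 2.35 under the WT label, a difference of -0.25 ± 0.34, and its labels overlapped. Cdc25b, a second CDK1-activating phosphatase, read 2.11 and 1.96 under the Ackr4ko label and 1.59 and 1.98 under the WT label. Its difference was 0.52 in experiment 1 and -0.03 in experiment 2.

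The sign of Ccnb1 depended on the probe. Of its 3 tested probes, all on chr13 (mm9, minus strand), the brightest one lies farthest along the transcript and was used above. The first 30 of the 60 bases of each probe are shown, so that the region each one reads can be found.
Ccnb1, from base 532 (chr13:101553449-101553508): tgagtgatgtagacgcagatgatggagctg
Ccnb1, from base 846 (chr13:101551224-101551283): tatgaggagatgtaccctccagaaataggt
Ccnb1, from base 2228 (chr13:101548722-101548781): gccacctggaaaagaatcctgtctcatttg
The probe from base 2228 gave -0.26 and -0.24 in experiments 1 and 2. The probe from base 532 gave -0.22 and 0.74, and the probe from base 846 gave -0.07 and 0.64. All 3 were thus below 0 in experiment 1, and they parted in experiment 2. The mean over the 3 probes turned the gene to 0.10. For Cdk1, with probes from bases 1111, 1130 and 2670 of its transcript (mm9 chr10, minus strand), those from bases 1111 and 1130, which overlap, gave 0.45 and 0.55, while the one from base 2670 gave -0.13. The probes from bases 1130 and 2670 were not well above background on the array labelled WT of experiment 2.

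The 4 mitotic kinases all had differences above 0 in both experiments, with a median of 0.56. Plk1 (polo-like kinase 1, which drives mitotic entry and centrosome maturation) read 2.92 and 3.49 under the Ackr4ko label and 2.22 and 2.87 under the WT label, a difference of 0.66 ± 0.38 (1.58-fold). Melk, a kinase of dividing cells, read 1.43 and 1.95 against 0.83 and 1.41, a difference of 0.57 ± 0.37. In both genes the labels did not overlap, although the lower Ackr4ko value and the higher WT value differed by less than 0.1. Aurka, which acts at the spindle poles, had 0.55 ± 0.47. Aurkb, the kinase that corrects attachments at the kinetochore, read -4.28 and -3.99 against -4.77 and -4.56, a difference of 0.53 ± 0.33 at a level close to background, and it was not well above background on the array labelled WT of experiment 2.

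The spindle checkpoint holds anaphase until every chromosome is attached. Its 5 genes had a median difference of 0.60, and were split by experiment. Ttk (the kinase MPS1, which starts the checkpoint signal) read -2.01 and -1.77 under the Ackr4ko label and -3.13 and -2.49 under the WT label. Its difference of 0.92 ± 0.36 (1.89-fold; limma adjusted p = 0.97, unadjusted p = 0.031) was 1.13 in experiment 1 and 0.72 in experiment 2, with no overlap of the labels. Bub1, a checkpoint kinase, read 1.35 and 2.10 against 0.45 and 1.39, a difference of 0.81 ± 0.43, with overlap between 1.35 and 1.39. Bub1b (BubR1), part of the complex that restrains Cdc20, had 0.60 ± 0.35 with no overlap. The other two had opposite signs in the experiments. Bub3, the adaptor of Bub1 and BubR1, read 3.44 and 4.10 against 3.48 and 3.45, and Mad2l1 (Mad2), which binds Cdc20, read 3.09 and 4.77 against 3.23 and 3.85. In both, the array labelled Ackr4ko of experiment 2 was high and the array labelled Ackr4ko of experiment 1 was the lowest of the 4.

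The 3 genes of the anaphase and ubiquitin machinery had similar and smaller differences, all above 0 in both experiments. Cdc20, the activator that turns the APC/C on at anaphase, read 3.47 and 4.02 under the Ackr4ko label and 3.22 and 3.58 under the WT label, a difference of 0.34 ± 0.35. Ube2c, the ubiquitin-conjugating enzyme that works with the APC/C, read 2.81 and 3.39 against 2.40 and 3.14, a difference of 0.33 ± 0.39. Pttg1 (securin, the inhibitor of separase that the APC/C destroys) read 2.61 and 3.41 against 2.54 and 2.75, a difference of 0.37 ± 0.37. The labels overlapped in all 3. A second, dimmer probe of Pttg1 gave 1.02, and was not well above background on the array labelled WT of experiment 2.

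Centromere and kinetochore genes had a median difference of 0.32 over 6 tested genes, with 0.17 in experiment 1 and 0.49 in experiment 2; relative to the medians of all genes the values were 0.21 and 0.26. Cenpa, the histone H3 variant that marks the centromere, read 3.51 and 4.89 under the Ackr4ko label and 3.36 and 4.06 under the WT label, a difference of 0.49 ± 0.49. Nuf2 and Spc25 are subunits of the NDC80 complex that grips microtubules. Nuf2 read 0.84 and 2.58 against 0.75 and 1.63, a difference of 0.52 ± 0.57, and Spc25 read 3.17 and 4.66 against 3.33 and 4.04, a difference of 0.23 ± 0.51. All 3 were higher on both arrays of experiment 2 than on those of experiment 1, highest on the one labelled Ackr4ko, and their labels overlapped. Ndc80 itself had 0.26 ± 0.40, and Birc5 (survivin, of the chromosomal passenger complex) had 0.27 ± 0.43. Cenpe, the kinetochore motor, was the only one of the 6 whose labels did not overlap, with 0.37 ± 0.32. Cenpf, a large kinetochore protein, had 1 probe, which was well above background on 1 array only, the one labelled Ackr4ko of experiment 1. Its signal was -4.70 and -5.29 under the Ackr4ko label and -6.46 and -5.22 under the WT label, and it was not tested.

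Spindle motors and binding proteins had a median difference of 0.54 over 9 genes, 0.73 in experiment 1 and 0.48 in experiment 2 (0.77 and 0.25 relative to all genes), and 8 of 9 were above 0 in both. Tpx2, which activates Aurora A and nucleates microtubules, had the highest difference of the 46. It read 1.89 and 2.46 under the Ackr4ko label and 0.94 and 1.51 under the WT label, without overlap, a difference of 0.95 ± 0.37 (1.93-fold; limma adjusted p = 0.97, unadjusted p = 0.0317) that was 0.96 in experiment 1 and 0.95 in experiment 2. A second probe of Tpx2, dimmer and on another transcript, gave 0.40 and -0.06. This second probe was not well above background on the array labelled WT of experiment 2. Hmmr, a spindle assembly factor, read 1.69 and 2.60 against 0.94 and 1.64, a difference of 0.85 ± 0.42, with labels that did not overlap but came within 0.1 of each other. Kif18b, a motor that shortens astral microtubules, read -1.36 and -0.96 against -1.80 and -1.17, a difference of 0.33 ± 0.36. Kif11 (Eg5, which pushes the spindle poles apart) read 0.52 and 0.50 against -0.21 and 0.56, so that 3 of the 4 arrays were alike and the array labelled WT of experiment 1 was low.

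The other 5 of this group had differences of 0.46 to 0.63. The microtubule-depolymerising kinesin Kif2c had 0.63 ± 0.36, the chromokinesins Kif4 and Kif22 had 0.58 ± 0.34 and 0.54 ± 0.38, the microtubule-bundling protein Nusap1 had 0.50 ± 0.43, and Kif15, which backs up Kif11, had 0.46 ± 0.35. The labels did not overlap in Kif2c, Kif4 and Kif15.

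The 6 cytokinesis genes were all above 0 in both experiments, with a median of 0.42. Anln (anillin, the scaffold of the contractile ring) read 1.01 and 1.62 under the Ackr4ko label and 0.13 and 0.90 under the WT label, without overlap, a difference of 0.80 ± 0.40 (1.74-fold). Kif23 (MKLP1, of the centralspindlin complex) read 0.88 and 0.77 against 0.11 and 0.50, without overlap, a difference of 0.53 ± 0.33. Its partner Racgap1 had 0.36 ± 0.39, and Ect2, the exchange factor they recruit to activate RhoA, had 0.49 ± 0.42. Prc1, which bundles the midzone microtubules, read 2.14 and 2.73 against 1.99 and 2.38, a difference of 0.25 ± 0.36. Kif20a (MKLP2) had 0.27 ± 0.37.

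Genes of mitotic chromosome structure had a median difference of 0.47 over 6 genes. Ncaph, a condensin subunit, read 3.30 and 3.98 under the Ackr4ko label and 2.61 and 3.41 under the WT label, a difference of 0.62 ± 0.41. Mki67 (the Ki-67 antigen, which coats mitotic chromosomes) read 4.62 and 4.13 against 3.72 and 3.84, a difference of 0.59 ± 0.34 (1.51-fold) without overlap of the labels. Unlike most of the group, its highest array was the one labelled Ackr4ko of experiment 1, and its second probe gave 0.63. Ncapg, another condensin subunit, had 0.54 ± 0.36 and was not well above background on the array labelled WT of experiment 2. The condensin ATPases had smaller differences: Smc2 read 2.35 and 3.13 against 2.19 and 2.73 (0.28 ± 0.39), and Smc4 read 3.84 and 4.55 against 3.85 and 3.95 (0.29 ± 0.36). Smc4 was alike on 3 arrays and high on the array labelled Ackr4ko of experiment 2. Top2a, the topoisomerase that untangles sister chromatids, had 0.40 ± 0.39.

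Foxm1, the forkhead factor that drives this wave of transcription, read 0.16 and 0.86 under the Ackr4ko label and -0.14 and 0.34 under the WT label, a difference of 0.41 ± 0.38 with overlap, close to the median of the group. A second probe gave 0.20, with -0.12 in experiment 1.

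The size of the difference was not ordered alike in the 2 experiments. Of the 46 genes, 25 had the larger difference in experiment 1 and 21 in experiment 2, and across the 46 genes the differences of the experiments had a Pearson r of 0.01 and a Spearman rho of -0.06 (across genes, which share the arrays and are not independent replicates), where over all 15961 genes r was 0.34 and over 62 further G2 and M genes 0.35. So Ttk and Mki67 were among the highest in experiment 1, Mad2l1, Nuf2 and Cdk1 were high in experiment 2 only, and Tpx2 and Hmmr were high in both.

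The place of the probe on the transcript moved with this. Over the 46 genes the start of the probe (log2 of its base in the transcript) had a Spearman rho of 0.45 with the difference in experiment 1 and of -0.30 with that in experiment 2; over 15008 tested genes with a known start the values were 0.06 and -0.22. The 23 genes with a probe starting at base 2560 or later had a median difference of 0.66 in experiment 1 and 0.36 in experiment 2. The 23 with a probe starting at base 2555 or earlier had 0.25 and 0.56. S phase genes had the same signs, 0.34 and -0.44 over 38 genes. The part of the probe's place in the differences was not tested.

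Over all 62 tested probes of the group, the median difference was 0.41; 47 were above 0 in both experiments, 2 were below 0 in both and 13 had opposite signs. Several tested probes were available for 12 genes, and only Ccnb1 and Cdk1 had mean differences of both signs. The other genes with several probes spanned 0.37 to 1.02 for Pttg1, 0.17 to 0.95 for Tpx2, 0.27 to 0.59 for Birc5, 0.13 to 0.49 for Ect2, 0.06 to 0.39 for Mad2l1 and 0.20 to 0.41 for Foxm1, while Kif2c, Mki67, Racgap1 and Ube2c spanned less than 0.1. The dimmer probes of Pttg1, Tpx2 and Ect2 were not well above background on the array labelled WT of experiment 2.

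**Figure D4:**
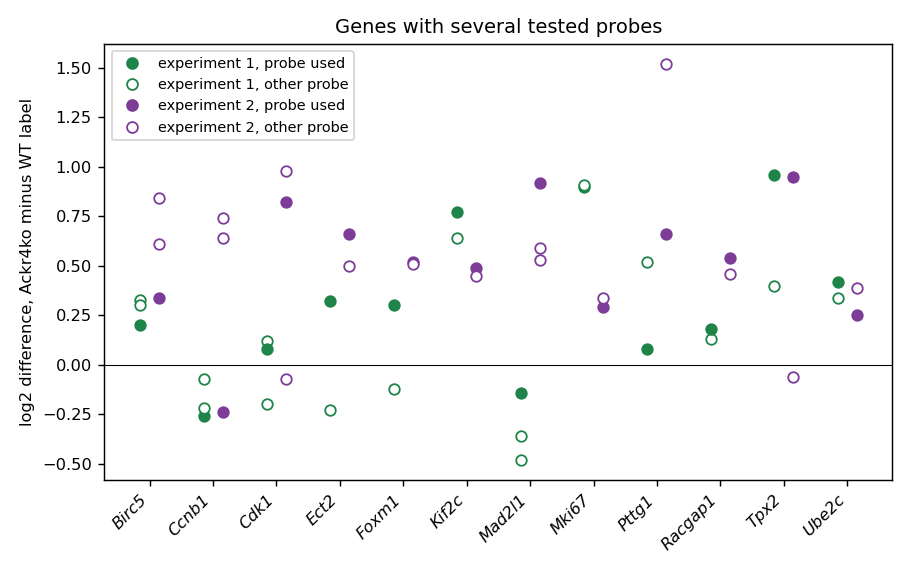
Log2 difference between the arrays labelled Ackr4ko and labelled WT for each tested probe of the 12 genes with several tested probes; green is experiment 1, purple is experiment 2, filled points are the brightest probe, which stands for the gene, and open points the other probes. The probes of Ccnb1, Cdk1, Pttg1 and Tpx2 lie far apart in experiment 2, while those of Mki67, Kif2c and Ube2c nearly coincide. The open points of Cdk1, Pttg1 and Tpx2 are probes not well above background on the array labelled WT of experiment 2.

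Genes with and without the motifs had overlapping differences. The 28 tested genes with TTTGAA in the promoter had a median difference of 0.47 (0.23 to 0.92) and the 11 without it 0.39 (-0.25 to 0.81). For CCAAT the medians were 0.43 over 28 genes with it and 0.50 over 11 without it. The 3 genes with TTTAAA and no TTTGAA were Ccnb1 at -0.25, Birc5 at 0.27 and Cenpe at 0.37.

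Other genes of the cell cycle give the setting, and 0 of any list below were called without the block. The 62 further G2 and M genes, other kinetochore, spindle and cytokinesis proteins, had a median of 0.43 (0.41 and 0.49 in the experiments), and 53 of 62 (85.5%) were above 0 in both, against the 33.0% of all tested genes. Of those, Cdca2 (a chromatin-bound phosphatase subunit) had 0.94 ± 0.37 and Spdl1 (Spindly, a dynein adaptor at the kinetochore) 0.89 ± 0.33. Psrc1, a spindle protein, was the only one of the 62 called with the block (3.33% of all tested genes were), with a difference of 1.42. Its SE was 0.67 without the block (limma unadjusted p = 0.0632) and 0.35 with it (limma adjusted p = 0.00246). The 38 genes of DNA replication and S phase had a median of 0.33, with 0.12 in experiment 1 and 0.44 in experiment 2 (0.16 and 0.20 relative to all genes), and 20 of 38 (52.6%) were above 0 in both; Pold1 (DNA polymerase delta) had 0.95 ± 0.35 and Orc1 (origin recognition) 0.91 ± 0.43. The 12 G1 and S cyclins, their kinases and E2F factors had medians of -0.02 and 0.02 in the experiments, and 3 of 12 were above 0 in both, with Ccnd3 at 0.38 ± 0.33 and Cdk6 at 0.97 ± 0.40, measured above background on 3 arrays only: on the array labelled WT of experiment 2 it was not, and its difference was 0.37 in experiment 1 and 1.58 in experiment 2.

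The lists of regulators of this wave had smaller medians, beside a median of 0.08 and 33.0% above 0 in both experiments for all tested genes, and the difference between lists was not tested. The 15 MuvB, DREAM and NF-Y genes had a median of 0.25 with 8 of 15 above 0 in both; Mybl2 (B-Myb) read 3.21 and 2.99 under the Ackr4ko label and 2.35 and 2.52 under the WT label (0.67 ± 0.32), and E2f5 had 0.85 ± 0.35. The 15 APC/C genes had a median of 0.12 with 9 of 15 above 0 in both; Anapc15 had 0.45 ± 0.36 and Cdc23, not well above background on the array labelled WT of experiment 2, -0.32 ± 0.33. The 11 brakes on CDK1 and genes of mitotic exit had a median of 0.22 with 6 of 11 above 0 in both; Mastl (Greatwall) had 0.68 ± 0.50 and Ppp2r2a, a subunit of the phosphatase it restrains, 0.68 ± 0.33.

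**Figure D5:**
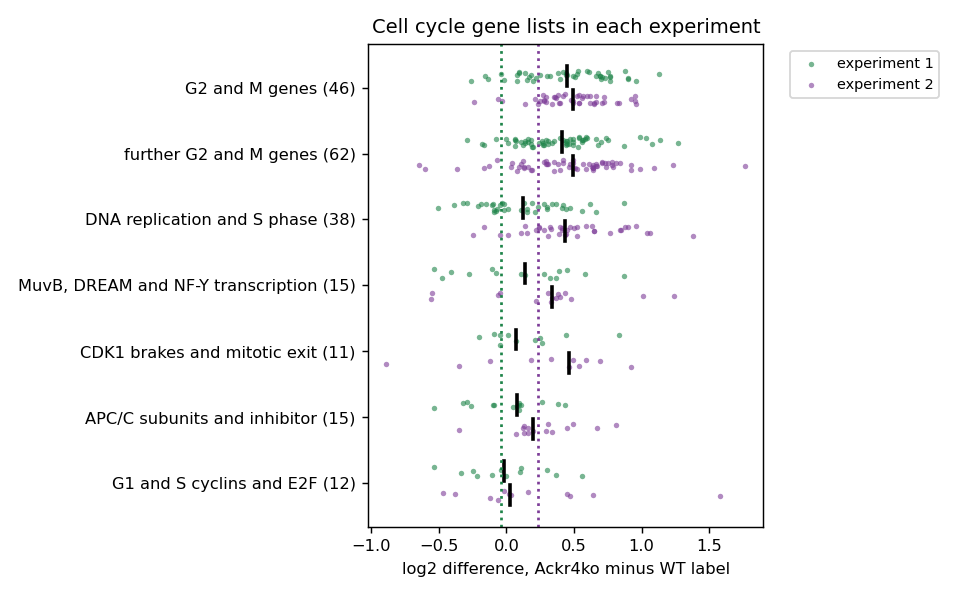
Log2 difference between the arrays labelled Ackr4ko and labelled WT of each tested gene in 7 cell cycle lists, in experiment 1 (green) and experiment 2 (purple), with black bars at the list's median and dotted lines at the medians of all tested genes; the number of tested genes is in brackets. The medians are 0.45 and 0.49 for the G2 and M phase genes, 0.41 and 0.49 for the further G2 and M genes and 0.12 and 0.44 for the DNA replication genes; relative to the dotted lines they are 0.49 and 0.26, 0.45 and 0.26, and 0.16 and 0.20.

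A few inhibitors of the cycle were called in the blocked fit. Of 24 tested inhibitors and p53 targets, 12 were above 0 in both experiments (33.0% of all tested genes were), and 5 were called with the block (3.33% of all tested genes were): Cdkn1a, Cdkn2a, Cdkn2b, Gadd45b and Zmat3. Cdkn1a (p21, an inhibitor of cyclin-dependent kinases) read -2.06 and 0.04 under the Ackr4ko label and -5.36 and -5.11 under the WT label. Under the WT label it was not well above background on either array, and it was thus at least 12.9-fold higher on the arrays labelled Ackr4ko. Cdkn2a (p16 and p19ARF) read -3.17 and -2.12 against -6.69 and -5.31, again not well above background under the WT label, and was at least 4.45-fold higher. These bounds set the dim group at the higher of each probe's own signal and the lowest signal well above background on that array. Cdkn1a, Cdkn2a and Cdkn2b passed the filter only through the arrays labelled Ackr4ko. Their calls rest on WT readings that were not well above background, so no p-values are given for them. The fit with the block has 1 residual degree of freedom per gene, and its standard error was 0.35 for each of these 5 genes. Its p-values thus rest on a variance pooled over all genes and not on a gene's own spread.

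Markers of other cells moved with the labels in part. The summed signal of the 8 dendritic cell markers, 5 of them tested, was 105 and 157 times the 75th percentile on the arrays labelled Ackr4ko of experiments 1 and 2 and 109 and 122 times on those labelled WT. Most of each sum came from Siglech, which read 5.78 and 6.15 against 5.99 and 5.95, and Ccr7, which read 5.27 and 6.27 against 5.34 and 5.79. Itgax, Xcr1 and Clec9a were not well above background on any array. Of the 5 tested ones, 1 was called with the block (3.33% of all tested genes were). That was Batf3, which read -4.23 and -2.63 under the Ackr4ko label and -7.08 and -5.26 under the WT label. It was not well above background on either WT array, and was at least 2.59-fold higher under the Ackr4ko label. Batf3 too passed the filter only through the arrays labelled Ackr4ko, so no p-value is given for it. Flt3 had 1.07 ± 0.33, Zbtb46 1.00 ± 0.37, Ccr7 0.20 ± 0.41 and Siglech -0.01 ± 0.33. The 4 tested macrophage and monocyte genes had a median of -0.31. Mpeg1 had -0.78 ± 0.35 with no overlap of the labels, Adgre1 -0.34 ± 0.33, Csf1r -0.29 ± 0.44 and Cd68 0.51 ± 0.36. The 8 T cell markers, 7 of them tested, summed to 49.8 and 58.5 against 61.2 and 60.1, with Cd8a not above background. Most of each T cell sum came from Lck, which read 5.53 and 5.74 against 5.85 and 5.79. Sums for other lists were 1.73 and 4.55 against 2.8 and 1.53 for erythroid genes, 1.2 and 1.26 against 1.1 and 1.04 for neutrophil and mast cell genes, 2.58 and 6.49 against 3.16 and 3.38 for NK genes, 6.37 and 7.57 against 8 and 7.74 for stroma and endothelium, and 24.5 and 27.8 against 24.9 and 23 for plasma cells. The part of these cells in the differences of the G2 and M phase genes was not tested.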

How the data were processed

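RNA from the cultured B cells was labelled with Cy3 and hybridised to 1-colour arrays, per the labels' protocols. The authors deposited scanner files with spot intensity, made with Agilent Feature Extraction 10.7.3.1 (file headers), and a table with 1 normalized intensity per probe, whose processing is not given in the sources used here. Here the processed signal was put on the log2 scale, and those of a probe's 4 spots that were not flagged as outliers were averaged. Where every spot of a probe was flagged, all were used. The array's 75th percentile, taken over all spots but controls and with outliers included, was subtracted. Tested probes had 50% or more of their spots well above background on 2 or more arrays; the brightest tested probe stood for its gene. No spot was saturated (0). The value table was used as an alternative.

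Labels were compared with limma 3.58.1 (R 4.3.3, lmFit and eBayes, two-sided, threshold 0.05 after Benjamini-Hochberg adjustment). The fits were also run on simulated data. That outcome is not given here, and nothing about the power for differences of this size is drawn from it. The main fit has no block and 2 residual degrees of freedom. The labels and the series description give 2 experiments, so replicate numbers pair the arrays; deviations of same-experiment arrays correlated at 0.42 over all genes and 0.43 over the 46. The block changed no call among the 46 genes. Per-array values are given for the highest pair and the lowest gene of each role (all in roles of 3 or fewer), for genes with opposite signs or untested, and for genes whose probes spanned over 0.5. From other cell cycle lists, called genes or those with the 2 smallest p are named, most of them without per-array values. The genes with profiles most like the group's are named with the range of their correlations. Members and lists were chosen with earlier results of these data known. Probe positions are on mm9, per the file headers; promoters come from RefSeq (GRCm38.p6) and were matched by symbol. The number of arrays limits the precision. The summed signal of the macrophage and monocyte list is not reported here.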

Additional observations from a re-analysis of the deposited data

How the results depend on the processing

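Called G2 and M phase genes (limma) stayed at 0 in each alternative that kept all 4 arrays. In these, 0 to 5 of the group had an unadjusted p under 0.05. The 5 were in the blocked fit, where 1694 of all tested genes did. The count of called genes was 2 as reported, 1 with quantile normalization, 20 with normexp background correction, 0 with probes well above background on all 4 arrays, 0 with no filter on dim probes (524 and 296 at an unadjusted p under 0.05), 1 with either order of the value table, 532 with the replicate block (experiment), which paired the arrays, and 1 to 122 when 1 array was left out (24 without the array labelled WT of experiment 1, 122 without that of experiment 2). The median difference of the group, 0.45 as reported, was 0.36 with quantile normalization, 0.40 with median scaling, 0.40 with normexp, 0.33 with the value table turned, and 0.12 to 0.75 when 1 array was left out. In experiment 1 it was 0.40 with normexp, and in experiment 2 it was 0.23 with quantile normalization, 0.38 with median scaling, 0.43 with normexp and 0.22 with the value table turned. Dim genes moved with normexp: Aurkb from 0.53 to 0.16, Ncapg from 0.54 to 0.28 and Ttk from 0.92 to 0.67. With the value table as labelled the medians were -0.33, -0.47 in experiment 1 and -0.22 in experiment 2, and 1 gene was above 0 in both; each of the 46 differences changed sign: Ccna2 -0.36, Ccnb1 0.34, Ccnb2 -0.07, Cdk1 -0.34, Cdc25b -0.16, Cdc25c -0.38, Plk1 -0.54, Aurka -0.40, Aurkb -0.27, Melk -0.49, Bub1 -0.72, Bub1b -0.52, Bub3 -0.14, Mad2l1 -0.18, Ttk -0.82, Cdc20 -0.20, Ube2c -0.21, Pttg1 -0.22, Cenpa -0.31, Cenpe -0.25, Ndc80 -0.18, Nuf2 -0.40, Spc25 -0.06, Birc5 -0.10, Tpx2 -0.84, Kif11 -0.27, Kif15 -0.39, Kif18b -0.27, Kif22 -0.40, Kif4 -0.55, Kif2c -0.59, Hmmr -0.75, Nusap1 -0.36, Kif20a -0.18, Kif23 -0.48, Prc1 -0.11, Anln -0.73, Ect2 -0.41, Racgap1 -0.24, Top2a -0.28, Smc2 -0.18, Smc4 -0.11, Ncapg -0.46, Ncaph -0.49, Mki67 -0.45, Foxm1 -0.33. Using the mean of all tested probes turned Ccnb1 to 0.10. Leaving out the array labelled Ackr4ko of experiment 2 turned 15 genes and leaving out the array labelled WT of experiment 1 turned 7; the range over the 4 left-out arrays for the genes that turned was Ccnb2 -0.26 to 0.77, Cdk1 -0.28 to 1.18, Aurka -0.02 to 1.11, Bub3 -0.03 to 0.63, Mad2l1 -0.45 to 1.22, Pttg1 -0.03 to 0.77, Cenpa -0.20 to 1.18, Ndc80 -0.12 to 0.64, Nuf2 -0.35 to 1.39, Spc25 -0.51 to 0.98, Birc5 -0.19 to 0.73, Prc1 -0.04 to 0.54, Racgap1 -0.06 to 0.78, Smc2 -0.11 to 0.66, Smc4 -0.07 to 0.65, Ube2c -0.04 to 0.70, Kif11 -0.05 to 0.72, Kif20a -0.07 to 0.61. The cause of these changes was not tested; the other alternatives turned the sign of 0 genes. With all 4 arrays required, 44 of the group were tested.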

Other observations

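Over the 4 arrays, 32 of the 46 G2 and M phase genes (69.6%) correlated above 0.9 with the group's own mean profile, against 1987 of 15915 other genes (12.5%); the group's genes made the profile, and 4 arrays give little to correlate over. The named genes outside the group with the most similar profile were Bloc1s5, Hsdl2, Plekhh3, Ptprs, Rnaseh2a, Bcs1l and Car9, with Pearson correlations of 0.9994 to 0.9999 over 4 arrays, beside 3 probes that carry no gene symbol.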
